A study of Arabidopsis thaliana with 12 samples.

Results

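The SAUR genes (small auxin up RNA) described here are 45 Arabidopsis thaliana loci chosen by name from that family, of which 34 had a row in the expression table of 16947 loci. The other 11 were not analysed here, among them 5 of the 6 listed genes of the tandem group AT5G18010 to AT5G18080, which holds SAUR19 to SAUR24. RNA of whole 5-day-old seedlings of the Col-0 ecotype was hybridised to 12 expression arrays, 3 in each of 4 groups. The groups were gmi1-1 seedlings harvested 1.5 h after 100 Gy of gamma rays, untreated gmi1-1 seedlings, wild type seedlings harvested 1.5 h after the same dose, and untreated wild type seedlings. The line gmi1-1 carries the insertion SALK_036931 in GMI1 (AT5G24280), a gene known to depend on the damage kinase ATM, and the comparison asks how its loss alters the seedling's transcripts after irradiation. All values are log2 expression as deposited, and a value below 4 is treated as near background. The titles call the replicates biological without saying how they were grown apart, so p-values measure the spread between these samples.

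SAUR genes encode short plant-specific proteins, and many of their transcripts are made within minutes of an auxin pulse and decay quickly. Several SAUR proteins are known to block PP2C.D phosphatases, which keeps plasma membrane proton pumps active, acidifies the wall and lets cells expand. In seedlings, members of the family promote the elongation of hypocotyls and the opening of cotyledons, while others have been tied to senescence or ethylene signalling.

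Some libraries stood apart from their labels. GMI1 was at 1.44, 1.60 and 1.29 in gmi1-1 irradiated and 1.66, 1.31 and 1.24 in gmi1-1 untreated seedlings, against 9.97, 10.92 and 10.46 in irradiated and 2.53, 1.87 and 2.34 in untreated wild type, so the irradiated arrays bear out the mutant label. Untreated wild type was itself below 4, and the genotype of untreated gmi1-1 arrays near that level cannot be checked this way. XRI1 (AT5G48720), a gene known to be induced by ionising radiation, was at 11.63, 12.84 and 12.83 in gmi1-1 irradiated seedlings, and at 11.91, 4.81 and 4.52 in those labelled untreated. The library labelled gmi1-1 untreated replicate 1 thus had XRI1 at the level of the irradiated ones. The test of irradiation in gmi1-1 includes it unless stated. Results are therefore also given without both gmi1-1 libraries numbered 1, so that each gmi1-1 group then holds 2 arrays. On the gmi1-1 irradiated replicate 3 array the 5' minus middle signal of the GAPDH control was -1.30, against -0.47 to -0.17 on the others, and the part of RNA quality in the results was not tested.

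Of the 34 measured SAUR genes, 20 reached a log2 value of 4 on at least 3 arrays and were tested, and 14 did not. All 14 untested genes had means over the 12 arrays between 1.18 (SAUR25, AT4G13790) and 3.06 (SAUR56, AT1G76190). Just below the limit stood SAUR1 (AT4G34770), with 1 array at 4 or more, its highest value of 4.80, and SAUR56, with none. Just above it stood SAUR76 (AT5G20820) and SAUR63 (AT1G29440), each with 5 arrays at 4 or more. For SAUR76 these 5 were all untreated arrays, so this gene could enter the test only by being lower after irradiation, and for SAUR63 they were 4 untreated and 1 irradiated. SAUR23 (AT5G18060), the only listed gene of its tandem group with a row, lay between 1.17 and 2.82 on the 12 arrays. Members of such tandem groups are close in sequence, and no source used here gives the probe sequences, so a signal may be shared between neighbours.

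**Figure D1:**
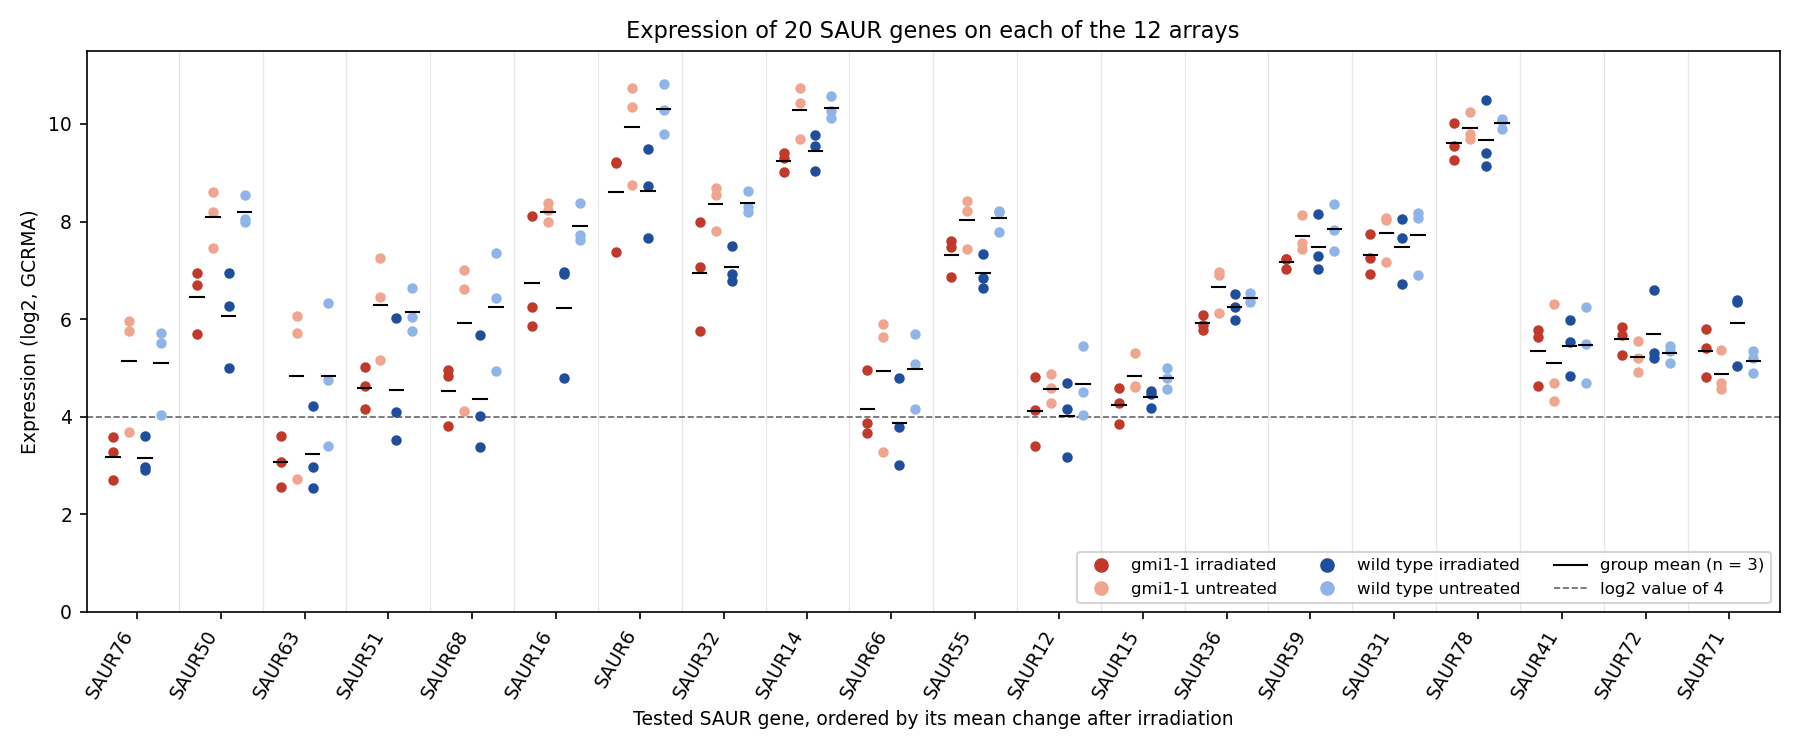
Expression (log2, GCRMA) of the 20 tested SAUR genes, ordered from left to right by their mean change after irradiation. Each point is 1 array, each short bar the mean of 3 arrays, and the dashed line the value of 4, below which levels are near background. SAUR50, second from the left, has its 6 irradiated arrays at 6.95 or less and its 6 untreated arrays at 7.46 or more.

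Irradiated seedlings had lower levels of several SAUR genes than untreated ones. Averaged over both genotypes, 7 of the 20 tested genes fell and 0 rose (limma, adjusted p under 0.05), where 6.29% of all 9889 tested loci fell and 4.09% rose. The 7 were SAUR50, SAUR76, SAUR14, SAUR55, SAUR32, SAUR51 and SAUR16, with log2 changes from -1.94 to -0.92. The filter could admit SAUR76 only in this direction, so its call adds nothing to the count, and with a filter at a value of 6, which leaves SAUR76 out, the other 6 passed. SAUR16, SAUR32, SAUR51 and SAUR55 passed in 13, 17, 15 and 18 of 23 alternatives. All 4 lost their calls without gmi1-1 untreated replicate 2 or 3, wild type irradiated replicate 2, or wild type untreated replicate 2 or 3. In each of these settings 3 genes still fell, and without wild type irradiated replicate 2 SAUR71 also passed, as a rise. SAUR16 and SAUR51 also lost theirs without gmi1-1 irradiated replicate 2 or 3, SAUR32 and SAUR51 without wild type irradiated replicate 1, and SAUR16 without wild type untreated replicate 1. Over the 20 genes the median change was -0.93, against -0.17 over all tested loci, and 17 of the 20 lay below 0, as did 69.0% of all loci. Without the filter, 29 of all 34 measured genes lay below 0, against 52.7% of 16947 loci. Without both gmi1-1 libraries numbered 1, 12 of the 20 fell and 1 rose, against 13.7% and 5.48% of 9829 loci. These 13 included all 7 named above. The genes added were SAUR6, SAUR63, SAUR66, SAUR68 and SAUR36, which fell, and SAUR71, which rose. SAUR63 and SAUR66 reached 4 on only 1 and 2 irradiated arrays, against 4 and 5 untreated ones, so the filter favoured their fall. This fit still holds gmi1-1 irradiated replicate 3, the array with the GAPDH value of -1.30. Without it that group keeps 1 array, and SAUR63, SAUR66, SAUR68, SAUR36 and SAUR71 lost their calls. In RNA of whole seedlings, fewer cells that express a gene and less of its RNA per cell cannot be told apart. The labels do not say whether untreated plates were handled like the irradiated ones, and a part of handling in these changes was not tested.

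SAUR50 (AT4G34760) and SAUR16 (AT4G38860) are known from the light-driven opening of cotyledons, and SAUR14 (AT4G38840) is a light-regulated neighbour of SAUR16. SAUR50 was at 6.94, 5.70 and 6.69 in gmi1-1 irradiated and 7.46, 8.19 and 8.61 in gmi1-1 untreated seedlings, and at 6.26, 4.99 and 6.95 in irradiated and 8.05, 7.99 and 8.55 in untreated wild type. Every irradiated array thus lay below every untreated one of both genotypes, the doubted library included. This was the case for 2 of the 20 tested genes and for 3.44% of all loci. The other gene was SAUR76, which the filter could admit only in this direction, so it adds nothing to the count. The opposite order held for 0 of the 20 and 0.86% of all loci. With both gmi1-1 libraries numbered 1 set aside, 7 of the 20 lay lower on every irradiated array of both genotypes and 0 higher. The shares of all loci were 10.6% and 5.05%, and SAUR76 is again among the 7. SAUR50 fell by 1.89 over both genotypes (SE 0.34, adjusted p = 0.00612), a 3.70-fold lower level on the array's scale. In wild type alone it fell by 2.13 (SE 0.48, adjusted p = 0.0283), the only one of the 20 to pass there.

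SAUR16 was at 8.12, 6.25 and 5.86 in gmi1-1 irradiated and 7.98, 8.23 and 8.37 in gmi1-1 untreated seedlings, against 6.92, 4.80 and 6.96 in irradiated and 8.37, 7.63 and 7.72 in untreated wild type. The groups did not overlap in wild type, while in gmi1-1 only replicate 1 of the irradiated arrays lay among the untreated ones. SAUR16 fell by 1.57 over both genotypes (SE 0.44, adjusted p = 0.0436), a call lost with quantile normalization and with median centring, and its adjusted p ran from 0.00427 to 0.106 over 23 alternatives. SAUR14 was at 9.40, 9.31 and 9.02 in gmi1-1 irradiated and 9.69, 10.42 and 10.74 in gmi1-1 untreated seedlings, and at 9.55, 9.04 and 9.77 in irradiated and 10.13, 10.26 and 10.57 in untreated wild type. The irradiated and untreated arrays did not overlap within either genotype, and its spread within groups was at most 0.54 (SD, n = 3). SAUR14 fell by 0.95 (SE 0.20, adjusted p = 0.0134), 1.94-fold. Between these neighbours lies SAUR15 (AT4G38850), a gene long used as an auxin-induced marker, which lay between 3.84 and 5.30 on all arrays. Its difference was -0.50 (SE 0.18, adjusted p = 0.105), and its groups did not overlap within either genotype.

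Other genes with values well above background also stood lower after irradiation. SAUR32 (AT2G46690), known from the apical hook of dark-grown seedlings, was at 8.0, 7.07 and 5.75 in gmi1-1 irradiated and 7.81, 8.55 and 8.69 in gmi1-1 untreated seedlings, and at 6.79, 6.93 and 7.50 in irradiated and 8.20, 8.30 and 8.62 in untreated wild type. It fell by 1.36 over both genotypes (SE 0.33, adjusted p = 0.0250), and the only irradiated array that overlapped the untreated ones was gmi1-1 replicate 1. SAUR55 (AT5G50760) was at 7.47, 7.61 and 6.86 in gmi1-1 irradiated and 7.44, 8.22 and 8.43 in gmi1-1 untreated seedlings, against 7.33, 6.63 and 6.85 in irradiated and 7.78, 8.20 and 8.21 in untreated wild type. It fell by 0.92 (SE 0.22, adjusted p = 0.0218). In SAUR55 the overlap came from the library labelled gmi1-1 untreated replicate 1, whose 7.44 lay below 2 of the irradiated gmi1-1 arrays. SAUR6 (AT2G21210) was at 9.21, 9.20 and 7.38 in gmi1-1 irradiated and 8.75, 10.34 and 10.74 in gmi1-1 untreated seedlings, and at 8.72, 7.66 and 9.48 in irradiated and 9.79, 10.28 and 10.82 in untreated wild type. Its difference of -1.51 (SE 0.45) missed the threshold at adjusted p = 0.0528, and without both gmi1-1 libraries numbered 1 it fell by 1.96 (SE 0.42).

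SAUR51 (AT1G75580) and SAUR76 lay nearer the background. SAUR51 was at 5.01, 4.16 and 4.62 in gmi1-1 irradiated and 5.16, 7.25 and 6.46 in gmi1-1 untreated seedlings, and at 4.10, 3.52 and 6.02 in irradiated and 5.75, 6.63 and 6.04 in untreated wild type. The gmi1-1 groups did not overlap, whereas wild type irradiated replicate 3 lay within the untreated range. SAUR51 fell by 1.64 over both genotypes (SE 0.44, adjusted p = 0.0359).

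SAUR76, whose protein is known to bind ethylene receptors, was at 3.27, 3.58 and 2.70 in gmi1-1 irradiated and 3.68, 5.76 and 5.96 in gmi1-1 untreated seedlings, and at 3.60, 2.91 and 2.97 in irradiated and 4.04, 5.52 and 5.71 in untreated wild type. All 6 irradiated arrays were near background and below the 6 untreated ones, so the fall of 1.94 (SE 0.41, adjusted p = 0.0131) is approximate in size. SAUR78 (AT1G72430), whose protein binds ethylene receptors too, lay between 9.13 and 10.49 on all 12 arrays. Its difference over both genotypes was -0.32 (95% interval -0.83 to 0.19, adjusted p = 0.386), and its irradiated and untreated arrays overlapped in both genotypes.

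The largest tandem group of the list, AT1G29420 to AT1G29510, had 8 listed genes, 6 with a row and 3 tested. One of them is SAUR63 (AT1G29440), known to promote the elongation of hypocotyls and flower organs. SAUR63 was at 3.60, 3.07 and 2.55 in gmi1-1 irradiated and 2.72, 5.71 and 6.07 in gmi1-1 untreated seedlings, and at 2.96, 2.53 and 4.22 in irradiated and 3.40, 4.75 and 6.33 in untreated wild type. Both untreated arrays numbered 1 were near background, while untreated replicates 2 and 3 of both genotypes stood above 4. The difference over both genotypes was -1.68 (SE 0.62, adjusted p = 0.108), and without both gmi1-1 libraries numbered 1 SAUR63 fell by 2.34 (SE 0.51, adjusted p = 0.0103). Over its 22 alternative settings the adjusted p ran from 0.00346 to 0.246.

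SAUR68 (AT1G29510, also listed as SAUR67) was at 4.96, 4.83 and 3.80 in gmi1-1 irradiated and 4.11, 6.62 and 7.01 in gmi1-1 untreated seedlings, and at 4.02, 3.37 and 5.67 in irradiated and 4.93, 6.44 and 7.36 in untreated wild type. SAUR66 (AT1G29500) showed the same order, with a group mean of 4.17 ± 0.69 (SD, n = 3) in gmi1-1 irradiated, 4.93 ± 1.45 in gmi1-1 untreated, 3.86 ± 0.90 in wild type irradiated and 4.97 ± 0.78 in wild type untreated seedlings. The differences of SAUR68 and SAUR66 were -1.64 (adjusted p = 0.0968) and -0.94 (adjusted p = 0.236) with all arrays. Without both gmi1-1 libraries numbered 1 these genes fell by 2.20 (SE 0.53) and 1.55 (SE 0.37). In these 3 genes the library labelled gmi1-1 untreated replicate 1 was the lowest of the 6 untreated arrays. The untested neighbours SAUR64 (AT1G29450), SAUR65 (AT1G29460) and AT1G29490 lay between 1.12 and 3.48 throughout.

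A small set of SAUR genes did not stand lower after irradiation. SAUR41 (AT1G16510), SAUR71 (AT1G56150) and SAUR72 (AT3G12830) belong to a subfamily known to act in cell expansion with expression in the inner tissues of root and shoot. SAUR71 was at 4.82, 5.80 and 5.40 in gmi1-1 irradiated and 5.36, 4.57 and 4.69 in gmi1-1 untreated seedlings, and at 6.40, 5.04 and 6.35 in irradiated and 5.34, 5.21 and 4.89 in untreated wild type. In each genotype 2 of the 3 irradiated arrays lay above every untreated one, the exceptions being gmi1-1 replicate 1 and wild type replicate 2. Its difference was 0.63 (SE 0.27, adjusted p = 0.157), and it rose by 0.88 (SE 0.27, adjusted p = 0.0464) without both gmi1-1 libraries numbered 1. Over 22 alternatives its adjusted p ran from 0.0156 to 0.308, and it passed in 4. SAUR72 was at 5.27, 5.84 and 5.68 in gmi1-1 irradiated and 5.56, 4.92 and 5.20 in gmi1-1 untreated seedlings, and at 5.30, 5.21 and 6.59 in irradiated and 5.44, 5.35 and 5.10 in untreated wild type. SAUR41 was at 5.78, 5.64 and 4.62 in gmi1-1 irradiated and 6.31, 4.32 and 4.68 in gmi1-1 untreated seedlings, and at 5.98, 4.84 and 5.54 in irradiated and 6.24, 4.70 and 5.49 in untreated wild type. Irradiated and untreated arrays of both genes overlapped in each genotype, and in SAUR41 replicate 1 was the highest array of each group. The differences were 0.39 (SE 0.24) for SAUR72 and 0.11 (SE 0.39) for SAUR41, and neither passed under any of 22 alternatives.

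SAUR36 (AT2G45210), a promoter of leaf senescence also called SAG201, was at 5.77, 6.09 and 5.88 in gmi1-1 irradiated and 6.12, 6.96 and 6.90 in gmi1-1 untreated seedlings, and at 6.51, 5.98 and 6.25 in irradiated and 6.54, 6.43 and 6.35 in untreated wild type. The groups did not overlap in gmi1-1 but did in wild type. Over both genotypes its difference was -0.47 (SE 0.17, adjusted p = 0.107). SAUR59 (AT3G60690) was at 7.24, 7.24 and 7.02 in gmi1-1 irradiated and 7.56, 7.43 and 8.13 in gmi1-1 untreated seedlings, and at 7.29, 7.02 and 8.15 in irradiated and 7.39, 7.83 and 8.35 in untreated wild type. Its groups were separate in gmi1-1 and overlapped in wild type. SAUR31 (AT4G00880) lay between 6.72 and 8.17 and SAUR12 (AT2G21220), the neighbour of SAUR6, between 3.18 and 5.45, with overlap in both genotypes. The differences over both genotypes were -0.56 (SE 0.33) for SAUR12, -0.46 (SE 0.23) for SAUR59 and -0.34 (SE 0.30) for SAUR31, and none of the 3 passed under any of their alternatives.

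**Figure D2:**
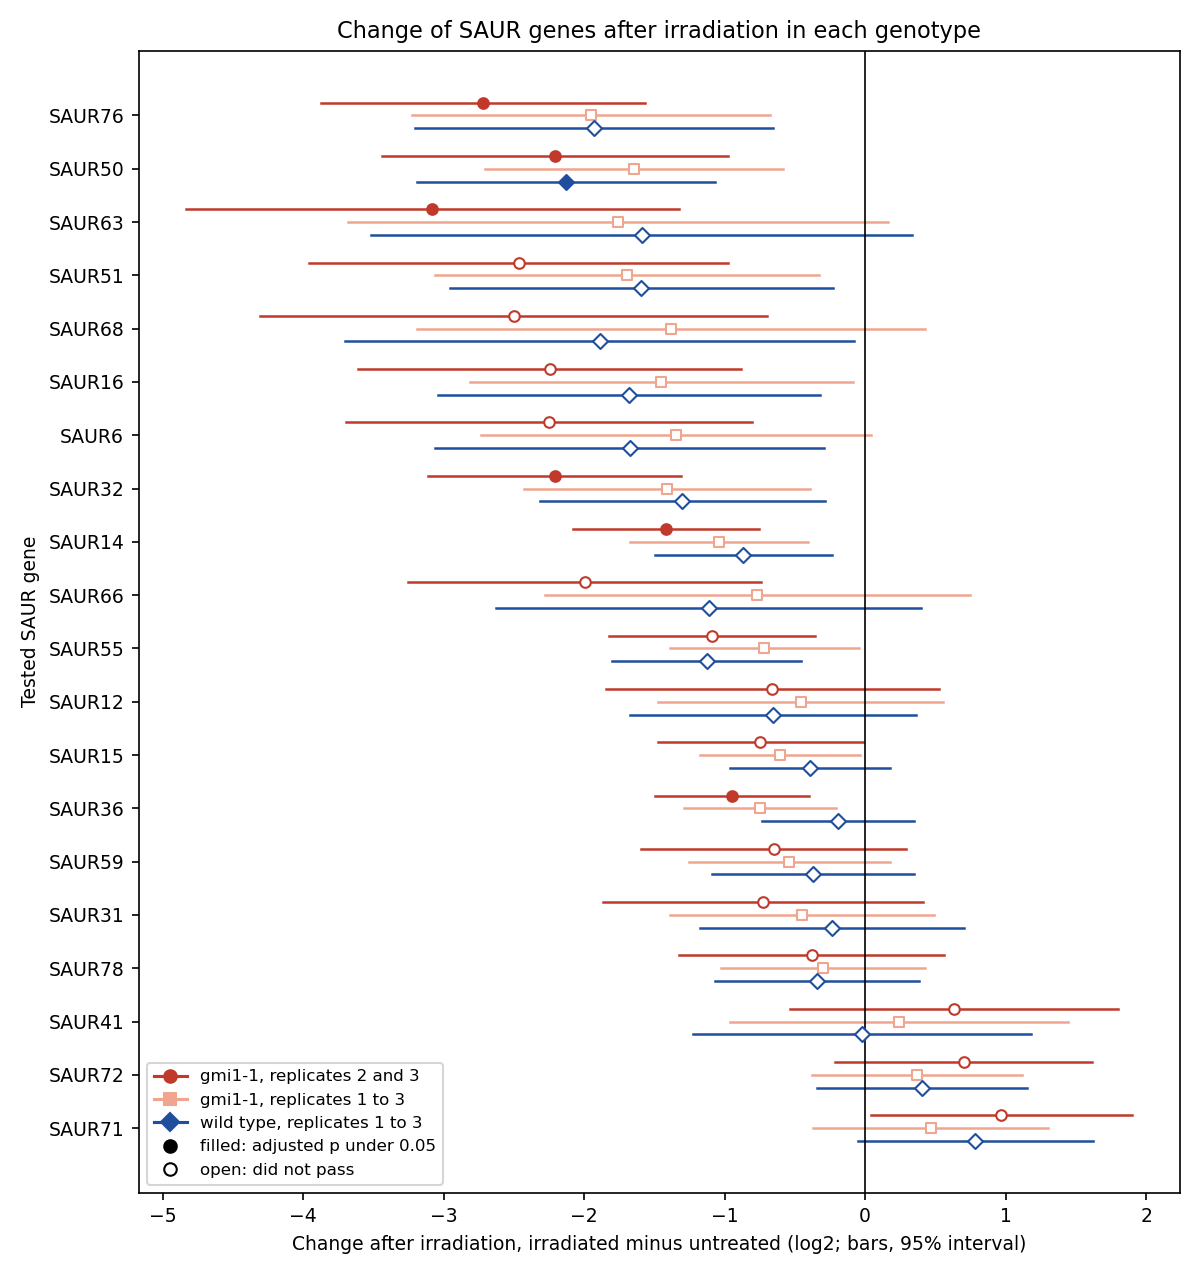
Change of the 20 tested SAUR genes after irradiation (log2, irradiated minus untreated) with 95% intervals from limma, for gmi1-1 replicates 2 and 3 (circles, fitted without both gmi1-1 libraries numbered 1), for all 3 gmi1-1 replicates (squares) and for wild type (diamonds, all 12 arrays in the fit). Filled symbols passed at adjusted p under 0.05: SAUR50 in wild type, and SAUR76, SAUR50, SAUR63, SAUR32, SAUR14 and SAUR36 in gmi1-1 replicates 2 and 3.

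Within wild type, SAUR50 was the 1 of 20 that passed, where 1.33% of all loci fell and 3.21% rose. Next by p-value were SAUR55 at -1.13 (SE 0.31, adjusted p = 0.0630) and SAUR76 at -1.93 (SE 0.58, adjusted p = 0.0940). In 8 of the 20 every irradiated array lay below every untreated array, as in 17.3% of all loci, and in 0 of the 20 above, as in 10.8%. These 8 were SAUR6, SAUR14, SAUR15, SAUR16, SAUR32, SAUR50, SAUR55 and SAUR76. Without both gmi1-1 libraries numbered 1, which enter the wild type test only through the shared spread, 4 fell: SAUR50, SAUR76, SAUR55 and SAUR32. Of all loci 3.25% then fell and 4.19% rose. SAUR76 adds nothing to the 8 or the 4, since the filter could admit it only in this direction. The call of SAUR50 in wild type was lost at adjusted p = 0.0576 without irradiated replicate 1, 0.112 without irradiated replicate 2, 0.0615, 0.0805 and 0.123 without untreated replicates 1, 2 and 3, and 0.0564 without the 4 arrays numbered 1. Its change ran from -2.57 to -1.59 over 24 alternatives.

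Within gmi1-1 as labelled, 0 of the 20 passed in limma, as 0% of all loci did, with 9 of the 20 at an unadjusted p under 0.05, against 13.2% of all loci. The smallest p-values were those of SAUR14 at -1.04 (SE 0.29, adjusted p = 0.234), SAUR50 at -1.64 (SE 0.48, adjusted p = 0.239) and SAUR76 at -1.95 (SE 0.58, adjusted p = 0.244). In 7 of the 20 the irradiated arrays all lay below the untreated ones and in 0 above, against 10.6% and 1.64% of all loci. SAUR76 is among these 7 and passed the filter only through untreated arrays. With replicates 2 and 3 alone, 6 fell and 0 rose, against 5.17% and 2.46% of all loci. SAUR32 fell by 2.21 (SE 0.41), SAUR50 by 2.21 (SE 0.55), SAUR14 by 1.42 (SE 0.30) and SAUR36 by 0.95 (SE 0.25). The others were SAUR63 at -3.08 (SE 0.79) and SAUR76 at -2.72 (SE 0.52), which passed the filter mainly or only through untreated arrays. Their irradiated values lay near background, so the sizes are approximate and the filter favoured that direction. With gmi1-1 irradiated replicate 3 also dropped, which leaves 1 irradiated gmi1-1 array that is assumed to vary like the other groups, only SAUR32 passed in gmi1-1. Between the arrays numbered 2 and 3, 16 of the 20 had both irradiated values below both untreated ones, against 46.8% of all loci. The 16 include SAUR63, SAUR66 and SAUR76, which passed the filter mainly or only through untreated arrays. In 2 (SAUR71 and SAUR72) both irradiated values lay above, against 10% of all loci.

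Whether the SAUR genes responded differently in the mutant was asked by the difference between both irradiation effects. In 0 of the 20 did this difference pass in limma, where 0.0101% of all loci passed downward and 0% upward. An unadjusted p under 0.05 was found in 0 of the 20, against 1.86% of all loci. The smallest p was that of SAUR36, at -0.55 (gmi1-1 minus wild type, 95% interval -1.32 to 0.21), followed by SAUR55 at 0.41 (-0.54 to 1.36) and SAUR50 at 0.49 (-1.01 to 1.98). For SAUR76 the difference was -0.02 with an interval from -1.82 to 1.78, which leaves room for effects that differ by more than 1 in either direction. Without both gmi1-1 libraries numbered 1, SAUR36 stood at -0.75 (interval -1.46 to -0.04). Again 0 of 20 passed after adjustment in limma, where 0.0102% of all loci passed. An unadjusted p under 0.05 was found in 1 of the 20, against 2.69% of all loci. The median difference over the 20 was then -0.52 with 16 of 20 below 0, against -0.26 over all loci, while with all arrays it was -0.03 with 11 of 20 below 0, against -0.14.

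Between genotypes under one treatment, 0 of the 20 SAUR genes passed in limma either way, with 0 at an unadjusted p under 0.05. The shares of all loci at an unadjusted p under 0.05 were 0.425% untreated and 7.73% irradiated. In untreated seedlings 0.0101% of all loci were higher in gmi1-1 and 0% lower, and in irradiated ones 0% were higher and 0.0101% lower. The smallest p-values in untreated seedlings were those of SAUR36 at 0.22 (gmi1-1 minus wild type, 95% interval -0.32 to 0.76), SAUR71 at -0.27 (-1.11 to 0.56) and SAUR41 at -0.37 (-1.58 to 0.83). In irradiated seedlings they were SAUR71 at -0.59 (-1.43 to 0.25), SAUR36 at -0.33 (-0.87 to 0.21) and SAUR55 at 0.38 (-0.29 to 1.05). The median over the 20 was -0.04 untreated and -0.09 irradiated, against -0.09 and -0.24 over all loci. Without both gmi1-1 libraries numbered 1 these medians were 0.25 with 14 of 20 above 0 untreated and -0.18 irradiated, against -0.03 and -0.29 over all loci, so the untreated median turned sign. SAUR41 was then at -0.98 (-2.04 to 0.09) and SAUR36 at 0.49 (-0.01 to 0.99) in untreated seedlings. Again 0 of the 20 had an unadjusted p under 0.05 in either comparison, against 1.94% of all loci untreated and 13.8% irradiated.

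The arrays differed in how far the SAUR genes stood apart. Between the arrays of one number, the median difference over the 20 tested genes (irradiated minus untreated) was -0.15 in gmi1-1 replicate 1, -1.12 in replicate 2 and -1.65 in replicate 3, and -0.46, -1.30 and -0.78 in wild type replicates 1, 2 and 3. Over all tested loci these medians were -0.01, -0.14 and -0.54 in gmi1-1 and -0.14, -0.08 and -0.09 in wild type. No gene of the 20 was lower by more than 1 in gmi1-1 replicate 1, against 11 and 15 in replicates 2 and 3, and 5, 11 and 7 in wild type. Over all tested loci the shares lower by more than 1 were 0.627%, 10.9% and 24.2% in gmi1-1 and 3.11%, 9.99% and 6.67% in wild type. The mean over the 20 genes was 6.29, 6.05 and 5.59 in gmi1-1 irradiated and 6.27, 6.99 and 7.24 in gmi1-1 untreated seedlings, and 6.04, 5.45 and 6.49 in irradiated and 6.64, 6.87 and 7.16 in untreated wild type. Both untreated arrays numbered 1 thus had the lowest mean of their group.

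**Figure D3:**
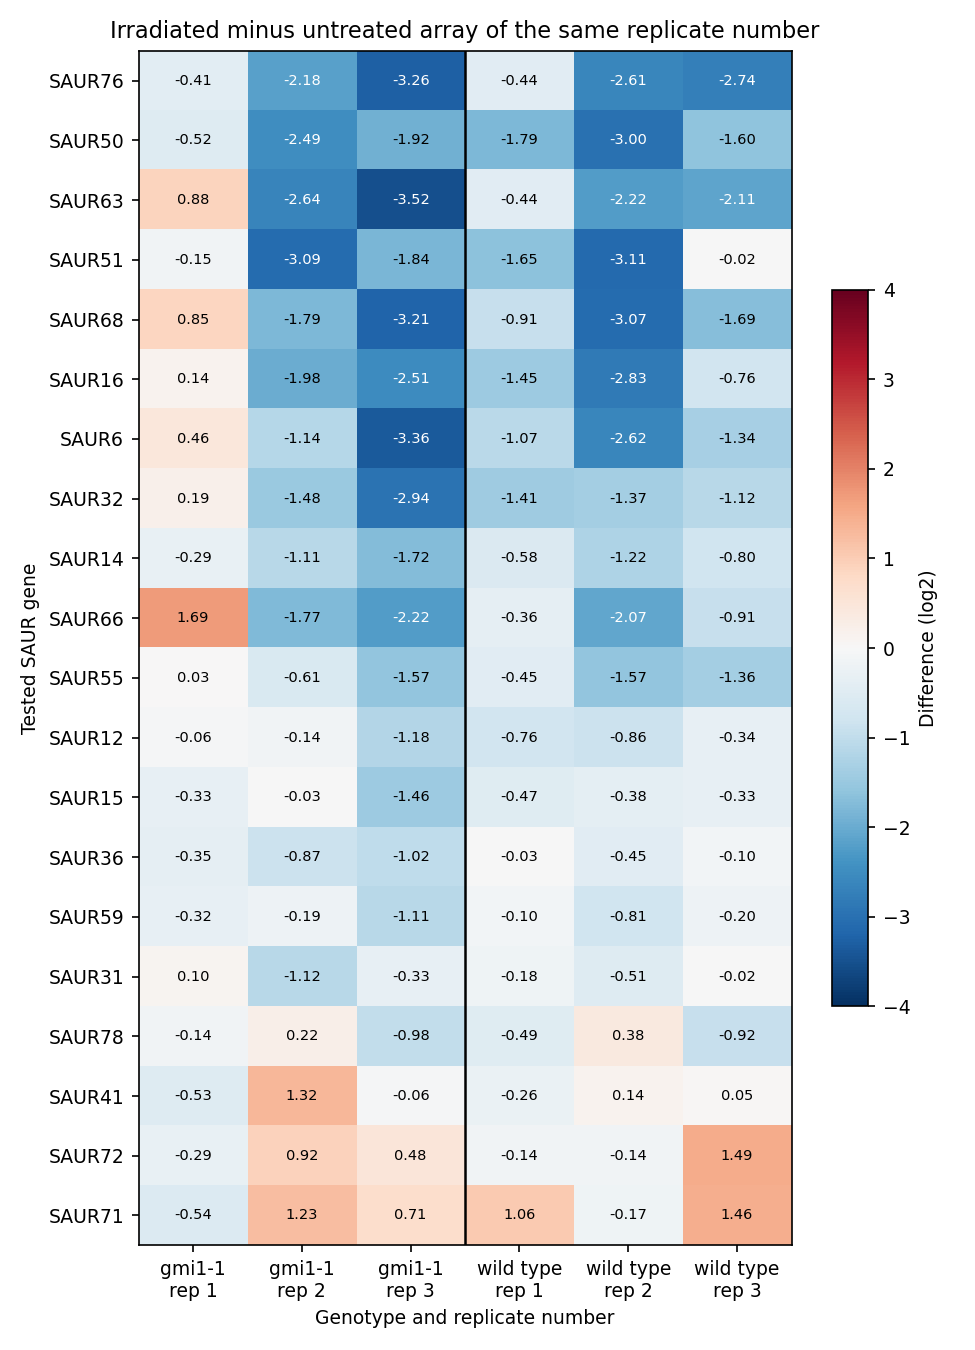
Difference (log2) between the irradiated and the untreated array of the same replicate number for each tested SAUR gene, for gmi1-1 (left 3 columns) and wild type (right 3 columns). Blue cells are lower and red cells higher in the irradiated array. The gmi1-1 replicate 1 column runs from -0.54 to 1.69, while that of gmi1-1 replicate 3 reaches -3.52.

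Other listed tandem groups gave little signal: 2 of the 4 genes of AT3G03820 to AT3G03850 and 1 of the pair AT1G19830 and AT1G19840 had a row, and none was tested, nor was AT1G75590 beside SAUR51. Some untested SAUR genes also had separate groups at values near background. In wild type 6 of the 14 untested genes had every irradiated array below every untreated one and 0 above, against 5.98% and 8.49% of 7058 untested loci. In gmi1-1 as labelled no untested gene lay below in this way, and SAUR25 lay above. With gmi1-1 replicates 2 and 3 alone, SAUR1, SAUR8, SAUR9, SAUR27, SAUR52, SAUR56, SAUR64 and SAUR65 lay below. SAUR10, SAUR25, SAUR28 and AT1G29490 lay above, the last in the opposite order to wild type. The share of untested loci was not computed for gmi1-1. Among tested loci 46.8% lay below and 10% above with replicates 2 and 3 alone, so the names from those replicates are not a result about SAUR genes. SAUR8 (AT2G16580) was at 2.64, 1.90 and 1.76 in gmi1-1 irradiated and 2.29, 2.69 and 3.17 in gmi1-1 untreated seedlings, and at 1.91, 1.39 and 1.83 in irradiated and 3.17, 2.69 and 3.05 in untreated wild type. With no filter SAUR8 also passed, in wild type and over both genotypes, though all its values lay below 4. SAUR1 was at 2.40, 2.38 and 2.67 in gmi1-1 irradiated and 2.34, 4.80 and 3.77 in gmi1-1 untreated seedlings, and at 2.38, 2.05 and 2.33 in irradiated and 2.76, 3.37 and 3.36 in untreated wild type.

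Other genes of the auxin pathway were tested in the same fit. Of 14 tested Aux/IAA repressors, 2 rose and 0 fell over both genotypes in limma, where 4.09% of all loci rose and 6.29% fell. IAA5 (AT1G15580) rose by 2.25 (SE 0.54, adjusted p = 0.0228) and IAA10 (AT1G04100) by 0.71 (SE 0.19, adjusted p = 0.0332). IAA5 lay below 4 on each untreated array but gmi1-1 replicate 1, at 4.98. It thus passed the filter mainly through irradiated arrays, so the filter favoured its rise and the size is approximate. IAA14 (AT4G14550) was at -0.76 (adjusted p = 0.0715), and the median of the list was -0.30. In limma 0 passed among 5 TIR1/AFB auxin receptors, 6 ARF transcription factors, 3 GH3 auxin-conjugating enzymes, 4 AHA proton pumps and 2 PP2C.D phosphatases. At those shares, lists of 2 to 6 genes are too small for 0 calls to set them apart from all loci. Examples are AFB3 (AT1G12820) at -0.39, the ARF gene ETT (AT2G33860) at -0.52, WES1 (AT4G27260) of the GH3 list at -0.39, and the pump gene HA2 (AT4G30190) at -0.21. The PP2C.D gene AT5G02760 was at -0.66 (SE 0.46). Without both gmi1-1 libraries numbered 1, AFB3, ETT and IAA14 fell as well, by 0.60, 0.64 and 0.85, where 13.7% of all loci fell. Medians of these lists ran from -0.30 to -0.00 against -0.93 for the SAUR genes and -0.17 for all loci, and no test of a difference between lists was made.

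Tissue markers were set beside the SAUR changes, since many SAUR genes act in the shoot. Of 9 listed shoot markers 4 had a row, and the photosynthesis genes of the list had none. Of the 4, 3 were tested and 2 fell over both genotypes in limma, where 6.29% of all loci fell and 4.09% rose. TMM (AT1G80080), a receptor of the stomatal lineage, fell by 0.93 (adjusted p = 0.0129). PDF1 (AT2G42840), an epidermal gene, fell by 0.59 (adjusted p = 0.0357). The summed log2 level of the 4 was 19.4 to 21.8 in gmi1-1 irradiated and 23.1 to 24.6 in gmi1-1 untreated seedlings, and 21.1 to 22.4 in irradiated and 23.2 to 23.8 in untreated wild type. SPCH (AT5G53210), a regulator of the stomatal lineage, was at -0.33 (adjusted p = 0.422). The meristem gene STM (AT1G62360) lay below 4 on all arrays. Of 10 measured root markers 6 were tested and 0 passed, with sums of 39.4 to 43.1, 40.2 to 45.8, 38.9 to 44.2 and 40.5 to 44.6 in the same 4 groups. The root hair gene SHV2 (AT5G49270) was at -0.96 (adjusted p = 0.0549). Without both gmi1-1 libraries numbered 1 it fell by 1.06 (adjusted p = 0.0254), the 1 root marker that did, where 13.7% of all loci fell. The median change was -0.59 over the tested shoot markers and -0.29 over the tested root markers, against -0.17 over all loci. TMM, PDF1 and the summed shoot level moved with the SAUR genes, and the part of tissue makeup in the SAUR changes was not tested.

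**Figure D4:**
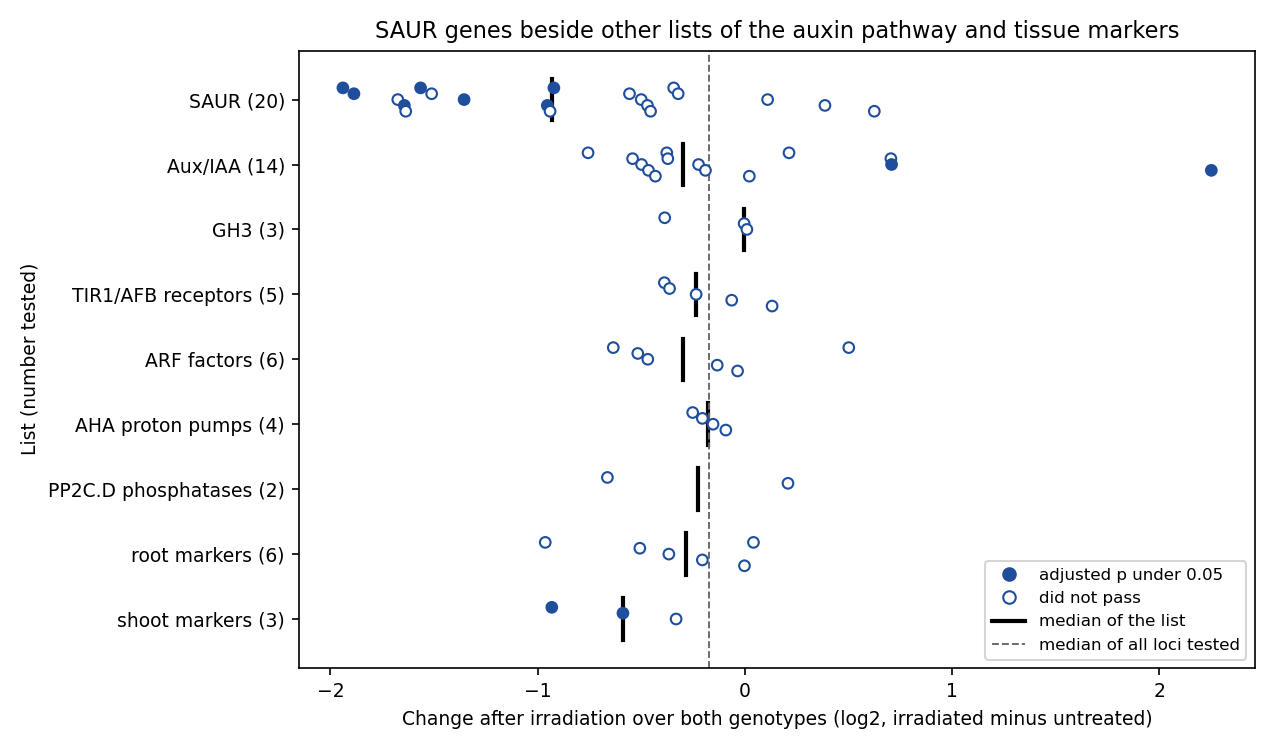
Change after irradiation over both genotypes (log2, irradiated minus untreated, all 12 arrays) of each tested gene of the SAUR set, of 6 lists of the auxin pathway and of 2 lists of tissue markers. Each point is 1 gene, filled where its adjusted p lay under 0.05, thick bars are list medians and the dashed line is the median of all 9889 loci at -0.17. The SAUR row holds 7 filled points, all below 0, and the Aux/IAA row 2, both above 0. SAUR76 and IAA5 are among them, and each passed the filter only or mainly through the treatment where it is high.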

How the data were processed

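The log2 values are as deposited: the authors made them with GCRMA, per the submitters' processing notes, and the log2 scale was read from their range. No source used here states the GCRMA version or the array design. Names came from RefSeq (TAIR10.1) by locus tag, which matched all 45 SAUR loci, and SAUR synonyms replaced locus symbols. The table names no build, so no coordinates are given. Loci with at least 3 of 12 arrays at 4 or more were kept. Group means (4) over the 12 arrays came from limma 3.58.1 in R 4.3.3 (lmFit, eBayes), tested on simulated data, with two-sided p-values adjusted by Benjamini-Hochberg over 9889 loci. Precision is limited by how many arrays there are.

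The members, lists and alternatives were chosen with earlier results of these data known. Genes named with values were, per contrast, up to 8 of those called (with under 3 calls, the 3 tested members of smallest p), the 5 with the highest means, those beside the filter, tandem groups, and in the other lists up to 3 genes of smallest p. The other tested SAUR genes were added so that each has a value. A list of growth transcription factors was not analysed here, and some genes of the lists are not reported here.

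Same-numbered arrays deviated together between genotypes (correlations of deviations from group means 0.537 to 0.666 untreated and 0.166 to 0.406 irradiated), so numbers pair the samples there. Between treatments they were 0.051 to 0.139 in gmi1-1, and 0.485, 0.07 and 0.533 in wild type replicates 1, 2 and 3.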

Additional observations from a re-analysis of the deposited data

How the results depend on the processing

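SAUR50 and SAUR14 fell over both genotypes under each of 23 alternatives. SAUR76 fell under each of the 22 that tested it, but the filter could admit it only in this direction, so its calls add nothing. The 7 called genes kept their direction under each alternative that tested them. Counts of SAUR genes called moved with the arrays used, and the counts of 13 and 4 over both genotypes include the rise of SAUR71. Over both genotypes 7 became 6 with quantile normalization or median centring (SAUR16 lost) and with a filter at 6 (SAUR76 left out), 8 with no filter or an intensity trend, 13 with array weights and 13 without both gmi1-1 libraries numbered 1, 12 without the 4 arrays numbered 1, and 3 to 12 with single arrays left out: 3 without gmi1-1 untreated replicate 2 or 3 or wild type untreated replicate 2 or 3, 4 without wild type irradiated replicate 2, and 12 without gmi1-1 untreated replicate 1. In wild type 1 became 2 with no filter, quantile normalization or median centring, 2 others (SAUR55 and SAUR76, with SAUR50 lost) without the arrays numbered 1, 3 with only both groups compared, 4 without the gmi1-1 libraries numbered 1, also with gmi1-1 irradiated replicate 3 left out, 7 with array weights, and 0 to 3 with single arrays left out. In gmi1-1 0 became 5 with array weights, 6 without its libraries numbered 1, 1 when its irradiated replicate 3 was dropped too, 7 without the arrays numbered 1, and 0 to 3 with single arrays left out. The cause was not tested.

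With the replicate number as a block the counts were 7 over both genotypes, 1 in wild type and 0 in gmi1-1, and 0 for the paired genotype comparisons, so it changed no count. Of 6 arrays in each irradiation contrast, 4 correlated best with their own number. The block with the gmi1-1 libraries numbered 1 left out, chosen after seeing the data, gave 13 over both genotypes, 5 in wild type and 10 in gmi1-1. Median centring moved the median of all loci for irradiation in gmi1-1 to -0.06 and quantile normalization to -0.01, against -0.23 as deposited, and 17 of 20 SAUR genes lay below 0 over both genotypes under each of these scalings. The difference of SAUR50 between genotypes, 0.49, turned to -0.25 with array weights, -0.075 without the gmi1-1 libraries numbered 1 (also with the block) and -0.57 without gmi1-1 irradiated replicate 3 too, and ran from -0.0517 to 0.93 with single arrays left out. SAUR41 between untreated genotypes ran from -0.98 to 0.0183 with single arrays left out, and SAUR36 between irradiated genotypes turned to 0.0551 with quantile normalization. GCRMA compresses values near background, which limits SAUR63 and SAUR76.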
